A study of Mus musculus with 2 samples.

Results

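The claudins are the membrane proteins that form the strands of tight junctions, and 8 of them were followed here across the barrier and glial cells of the mouse brain: Cldn1, Cldn2, Cldn3, Cldn5, Cldn10, Cldn11, Cldn12 and Cldn19. They were chosen by gene symbol from the 25906 genes of the feature list, which holds 24 further claudin symbols. The 8 genes carried 95.6% of the claudin UMIs (unique molecular identifiers, each standing for 1 captured transcript) in the library labelled IL34LacZ/LacZ and 96.4% in the library labelled IL34LacZ/+. Single cells sorted from whole brains of adult mice were profiled on the 10x Chromium platform, which reads a tag near the 3' end of each transcript. All mice carried a LacZ allele of Il34, the gene of interleukin-34, a ligand of the microglial and macrophage receptor Csf1r. There was 1 library of the genotype IL34LacZ/LacZ, which the design text treats as the knockout, and 1 library of the genotype IL34LacZ/+, a heterozygote that it treats as wild type. The sample titles speak of astrocytes alone while the cell type field adds endothelial cells. The sources used here do not state how many mice went into a library, their exact age or sex, or which markers the sort used. The series title places the work in the study of brain vessels and of macrophages beside them that need interleukin-34.

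Tight junctions seal the gap between neighbouring cells, and each claudin gives the seal its own selectivity: some close it, others form channels for ions or water. The brain has several such seals: between the endothelial cells of its vessels (the blood-brain barrier), between the epithelial cells of the choroid plexus, which make cerebrospinal fluid, and between arachnoid cells of the meninges. Claudins also occur where no barrier tissue is formed, as in the myelin made by oligodendrocytes.

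The 2 libraries held 5400 barcodes (IL34LacZ/LacZ) and 3901 barcodes (IL34LacZ/+). After filtering, 1168 cells labelled IL34LacZ/LacZ with a median of 10378 UMIs and 1665 cells labelled IL34LacZ/+ with a median of 8096 UMIs remained. The libraries shared 8 barcodes in all and 2 among these cells. Cells were assigned to classes by scores of marker genes, with no claudin among the markers. The classes that matter here were endothelial cells (294 and 514), choroid plexus epithelium (258 and 350), meningeal cells (90 and 97), oligodendrocytes (228 and 251), astrocytes (116 and 245) and, as a further vascular type, pericytes (48 and 33), each given as cells labelled IL34LacZ/LacZ and cells labelled IL34LacZ/+. Oligodendrocytes, choroid plexus, meningeal cells and pericytes are not named by the cell type field. Endothelial, choroid plexus, oligodendrocyte and astrocyte classes each had 2 to 5 of their markers among their 10 genes of highest fold over other cells. The same markers formed the classes, so this cannot test their names. In the meningeal class those 10 genes held its markers Col3a1, Dcn, Col1a1 and Bnc2, and the antigen presentation genes H2-Aa and Cd74. Its gate was less sharp: 16 of 90 cells (IL34LacZ/LacZ) and 36 of 97 cells (IL34LacZ/+) lay within 0.05 of the margin that the gate required. Il34 tags numbered 262 (18.8 CPM, the gene's UMIs as a rate over all UMIs of the cells) in the library labelled IL34LacZ/LacZ and 166 (10.2 CPM) in the library labelled IL34LacZ/+. Most came from 2 classes, given in the same order of libraries: pericytes (513 and 361 CPM) and meningeal cells (87.3 and 59.6 CPM). Pericytes were 4.11% and 1.98% of the cells, so the rates over all cells mix level with composition. The tags of the targeted gene were thus not lower in the library labelled as the knockout, so every direction given here rests on the labels. A tag outside the part that the LacZ allele replaces checks nothing, and the sources used here do not state where LacZ was inserted. With 1 library for each genotype, cells are not replicates and no test between genotypes was possible. The 95% intervals in parentheses cover counting error only, and a genotype in parentheses after a value names the library by its label.

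**Figure D1:**
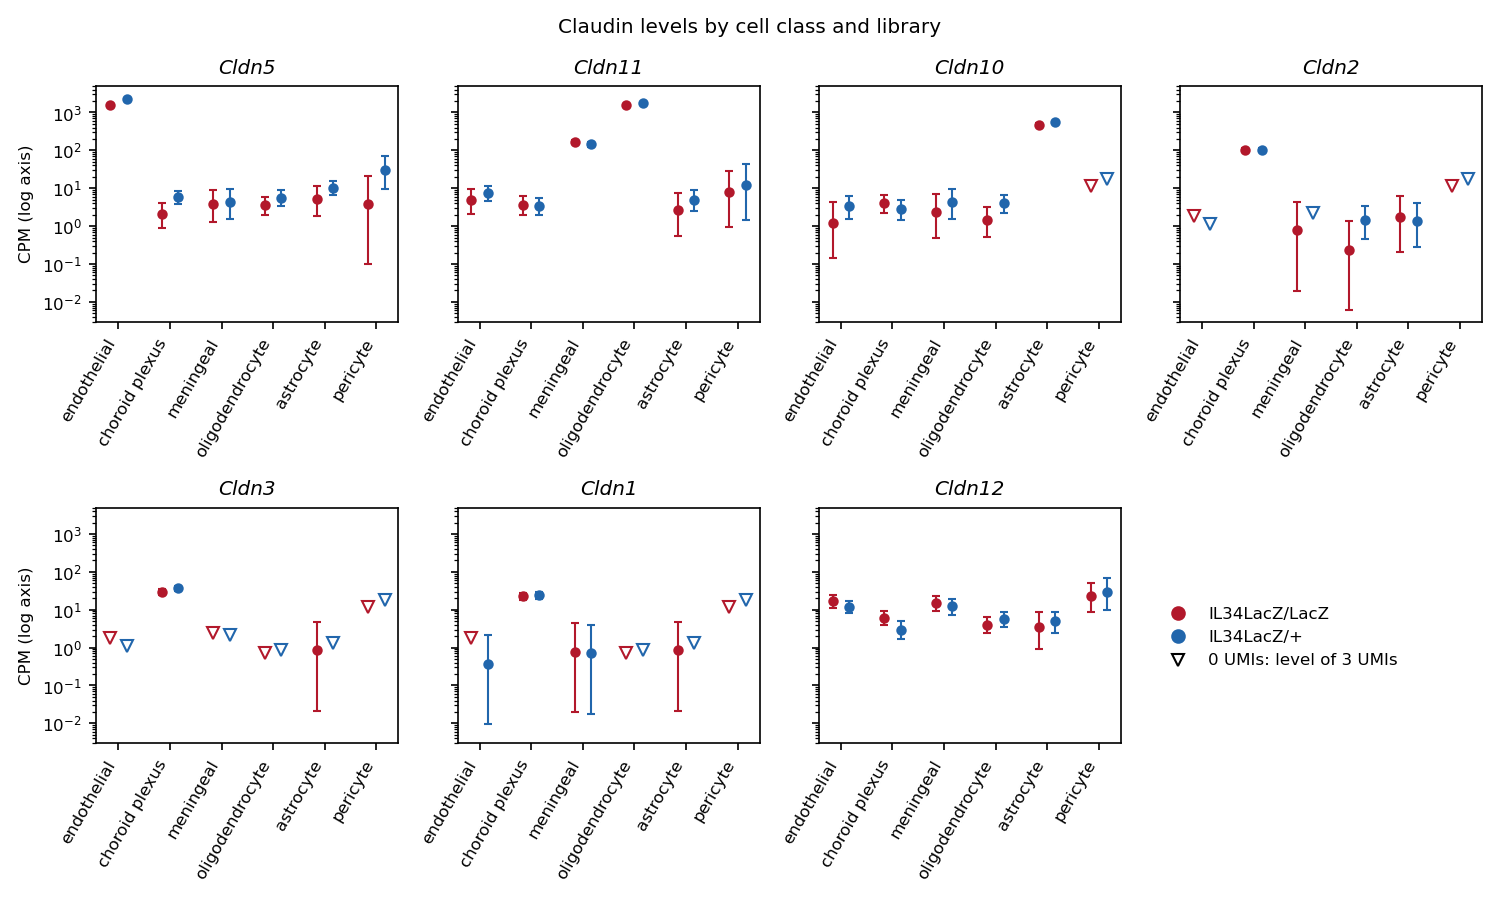
Level of 7 claudins in 6 cell classes, in CPM on a log axis, with exact Poisson 95% intervals; red points are the library labelled IL34LacZ/LacZ, blue points the library labelled IL34LacZ/+, and open triangles mark the level of 3 UMIs where a class had 0. Cldn5 stands out in endothelial cells (1589 CPM in IL34LacZ/LacZ, 2297 CPM in IL34LacZ/+), Cldn11 in oligodendrocytes (1595 CPM in IL34LacZ/LacZ, 1825 CPM in IL34LacZ/+) and meningeal cells (168 CPM in IL34LacZ/LacZ, 146 CPM in IL34LacZ/+), Cldn10 in astrocytes (472 CPM in IL34LacZ/LacZ, 565 CPM in IL34LacZ/+), and Cldn1, Cldn2 and Cldn3 in choroid plexus, while Cldn12 is low in every class.

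The promoters of Cldn5, Cldn11 and Cldn2 are printed here, 1 for each kind of seal in which a claudin stood out, as they show how differently genes of 1 family begin. They run from 250 bases before to 50 bases after the RefSeq start of transcription in GRCm38.p6, on the plus strand, at chr16:18776597-18776896 (Cldn5), chr3:31149670-31149969 (Cldn11) and chrX:139800558-139800857 (Cldn2). Capitals mark the letters of a CCAAT box, read on either strand (CCAAT or ATTGG), and of a TATA box (TATAAA or TTTATA).
Cldn5: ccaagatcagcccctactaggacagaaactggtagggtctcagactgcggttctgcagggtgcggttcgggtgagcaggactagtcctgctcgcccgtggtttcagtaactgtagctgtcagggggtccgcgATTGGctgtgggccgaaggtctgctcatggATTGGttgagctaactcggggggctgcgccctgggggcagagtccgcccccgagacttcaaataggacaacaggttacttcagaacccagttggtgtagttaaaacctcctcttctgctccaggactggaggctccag
Cldn11: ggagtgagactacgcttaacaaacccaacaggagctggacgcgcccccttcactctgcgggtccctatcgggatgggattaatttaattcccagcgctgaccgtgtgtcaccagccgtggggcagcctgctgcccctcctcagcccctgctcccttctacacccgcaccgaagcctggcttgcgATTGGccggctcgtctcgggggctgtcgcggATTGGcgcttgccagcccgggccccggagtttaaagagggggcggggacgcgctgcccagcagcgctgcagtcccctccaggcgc
Cldn2: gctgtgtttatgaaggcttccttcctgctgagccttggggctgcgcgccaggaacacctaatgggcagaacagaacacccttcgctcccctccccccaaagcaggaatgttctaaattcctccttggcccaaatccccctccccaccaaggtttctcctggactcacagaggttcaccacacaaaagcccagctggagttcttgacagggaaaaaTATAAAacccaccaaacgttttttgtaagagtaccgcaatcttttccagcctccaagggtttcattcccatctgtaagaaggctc
The Cldn5 promoter holds 2 ATTGG matches, 118 and 88 bases before the start, and the Cldn11 promoter holds 2 as well, 66 and 35 bases before it. At least 2 such matches are found in 11.7% of the 32851 mouse promoters of the same length in the RefSeq table. The Cldn2 promoter holds neither CCAAT nor ATTGG but has TATAAA 35 bases before the start, and 13.6% of all promoters hold that motif on either strand. A GC box (GGGCGG or CCGCCC), found in 35.7% of all promoters, is present once in the Cldn5 and Cldn11 promoters and not in that of Cldn2. ACAAAG or CTTTGT, a core bound by SOX and TCF factors, occurs in none of the 3 windows and in 18.7% of all promoters. A match describes the letters and is not evidence that a factor binds there.

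Cldn5 encodes the principal claudin of the blood-brain barrier, and mice that lack it leak small molecules into the brain. It is a gene of 1 exon on the plus strand of chromosome 16, from 18776847 to 18778262 in GRCm38. Endothelial cells held 2606 Cldn5 UMIs, or 1589 CPM (1529 to 1651), in the library labelled IL34LacZ/LacZ and 6118 UMIs, or 2297 CPM (2240 to 2355), in the library labelled IL34LacZ/+. The level was lower in cells labelled IL34LacZ/LacZ, with a log2 ratio of -0.53 (-0.60 to -0.47). This is a 1.45-fold difference, just inside the 1.5-fold size used here for counting genes; in cells grouped by Leiden clustering instead of marker scores the ratio was -0.63, which is past it. Of the 6114 genes with at least 100 UMIs in endothelial cells, 2.34% were past 1.5-fold higher and 4.66% past 1.5-fold lower in the library labelled IL34LacZ/LacZ, and Cldn5, the 1 claudin of the 8 with that many UMIs in this class, was in neither group. Of those genes, 367 had a lower ratio than Cldn5, and among the 104 that reached 1000 CPM 1 did. Ratios of genes at that level carry less counting error than those of the others, so the 2 counts are not alike.

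Nearly every endothelial cell held Cldn5 at full depth. A Cldn5 UMI was found in 278 of 294 cells labelled IL34LacZ/LacZ, or 94.6% (91.3 to 96.9), and in 491 of 514 cells labelled IL34LacZ/+, or 95.5% (93.4 to 97.1). The median cell had 1410 CPM (quartiles 781 and 2110) in the library labelled IL34LacZ/LacZ and 1958 CPM (quartiles 1142 and 3038) in the library labelled IL34LacZ/+, so the ranges between the quartiles overlap. No single cell carried the class: the richest held 1.53% (IL34LacZ/LacZ) and 1.08% (IL34LacZ/+) of the Cldn5 UMIs. When each cell was thinned to 1000 UMIs, 71.1% (65.5 to 76.2) of cells labelled IL34LacZ/LacZ and 80.4% (76.6 to 83.7) of cells labelled IL34LacZ/+ still showed Cldn5, a lower share in the library labelled IL34LacZ/LacZ with intervals that do not overlap. Outside the endothelium a Cldn5 UMI was found in 14 of 228 (IL34LacZ/LacZ) and 18 of 251 (IL34LacZ/+) oligodendrocytes. It was found in 5 of 116 (IL34LacZ/LacZ) and 17 of 245 (IL34LacZ/+) astrocytes, and in 1 of 48 (IL34LacZ/LacZ) and 4 of 33 (IL34LacZ/+) pericytes. Of choroid plexus cells, which should lack Cldn5, 2.71% (IL34LacZ/LacZ) and 7.43% (IL34LacZ/+) had a UMI. Their median depth was 13768 UMIs (IL34LacZ/LacZ) and 12225 UMIs (IL34LacZ/+), against 4850 UMIs (IL34LacZ/LacZ) and 4351 UMIs (IL34LacZ/+) in endothelial cells.

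**Figure D2:**
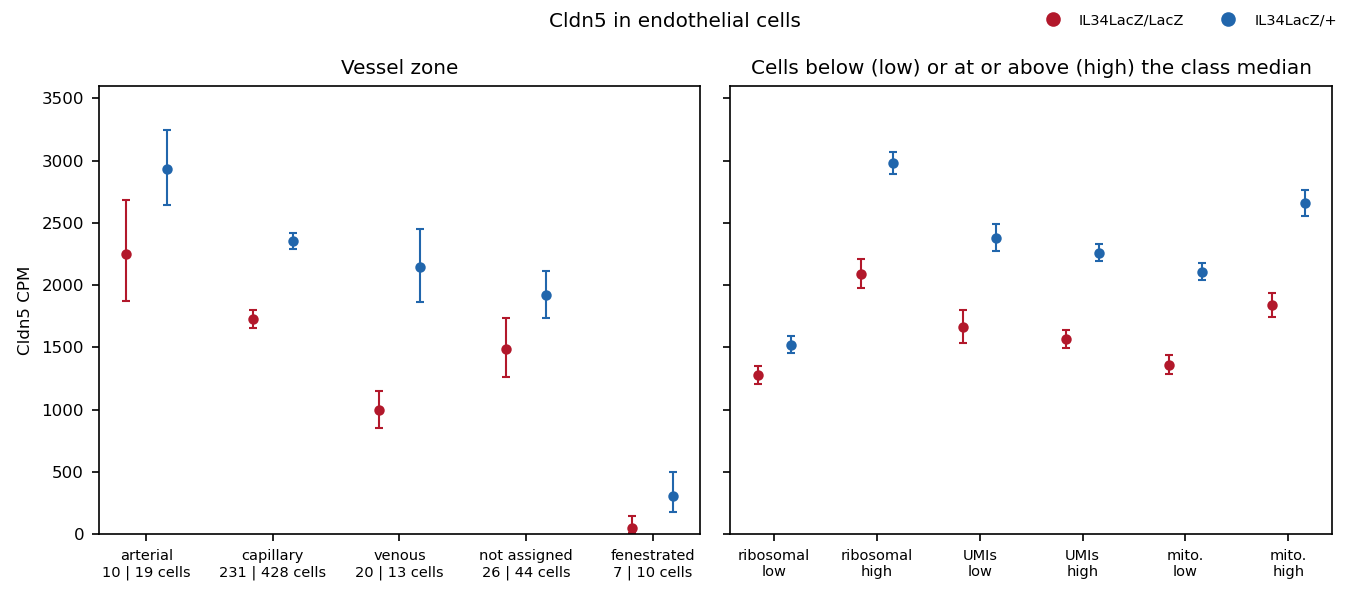
Cldn5 level in endothelial cells, in CPM with exact Poisson 95% intervals, by vessel zone (left, with cell numbers, IL34LacZ/LacZ before IL34LacZ/+) and by whether a cell lies below or at or above the class median of its ribosomal protein share, UMI number or mitochondrial share (right). The library labelled IL34LacZ/LacZ (red) lies below the library labelled IL34LacZ/+ (blue) in each pair. The gap is widest in venous cells, at 995 CPM (IL34LacZ/LacZ) and 2146 CPM (IL34LacZ/+), and small in cells with a low ribosomal protein share, at 1277 CPM (IL34LacZ/LacZ) and 1523 CPM (IL34LacZ/+).

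Cldn5 was present in each zone of the vessel tree. Arterial cells had 2251 CPM (1872 to 2683, 10 cells) in the library labelled IL34LacZ/LacZ and 2933 CPM (2641 to 3249, 19 cells) in the library labelled IL34LacZ/+. In capillary cells, the bulk of the class, it reached 1727 CPM (IL34LacZ/LacZ, 1655 to 1802, 231 cells) and 2352 CPM (IL34LacZ/+, 2288 to 2418, 428 cells). Venous cells had 995 CPM (855 to 1152, 20 cells) in the library labelled IL34LacZ/LacZ and 2146 CPM (1868 to 2454, 13 cells) in the library labelled IL34LacZ/+. The order in the library labelled IL34LacZ/LacZ was therefore arterial, capillary, venous, with no overlap of the intervals of capillary and venous cells. The intervals of capillary and venous cells overlapped in the library labelled IL34LacZ/+.

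The log2 ratio was -0.38 (-0.69 to -0.08) in arterial, -0.45 (-0.52 to -0.37) in capillary and -1.11 (-1.40 to -0.82) in venous cells. The venous interval does not overlap the other 2, but it rests on few cells, of which the richest held 11.7% (IL34LacZ/LacZ) and 24.8% (IL34LacZ/+) of the UMIs. The arterial ratio rests on few cells too, of which the richest held 26.6% (IL34LacZ/LacZ) and 17.4% (IL34LacZ/+) of the UMIs. The median arterial cell went the other way, with 2152 CPM (IL34LacZ/LacZ) and 1800 CPM (IL34LacZ/+). Leaving the inflammation-responsive markers Vcam1, Icam1 and Il1r1 out of the venous gate gave 1068 CPM in 19 cells labelled IL34LacZ/LacZ and 2284 CPM in 15 cells labelled IL34LacZ/+. Cells of no assigned zone had 1486 CPM (IL34LacZ/LacZ) and 1921 CPM (IL34LacZ/+), a log2 ratio of -0.37 (-0.64 to -0.10). Fenestrated cells, the leaky type of the choroid plexus and circumventricular organs, were few: 7 cells labelled IL34LacZ/LacZ held 3 Cldn5 UMIs, and 10 cells labelled IL34LacZ/+ held 16, all of them in 1 cell.

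Another property of the endothelial cells moved with Cldn5. Ribosomal protein genes took 0.791% of endothelial UMIs in the library labelled IL34LacZ/LacZ and 1.14% in the library labelled IL34LacZ/+. Cells below the class median of that share had 1277 CPM of Cldn5 (IL34LacZ/LacZ, 180 cells) and 1523 CPM (IL34LacZ/+, 224 cells), a log2 ratio of -0.25 (-0.36 to -0.15). Cells at or above it had 2093 CPM (IL34LacZ/LacZ, 114 cells) and 2979 CPM (IL34LacZ/+, 290 cells), a log2 ratio of -0.51 (-0.60 to -0.42). Cldn5 was thus higher in cells rich in ribosomal protein transcripts in both libraries, and the ratio between libraries stayed below 0 on both sides of the median. Split by UMI number, the ratio was -0.52 (-0.65 to -0.38) in the shallower and -0.53 (-0.61 to -0.45) in the deeper cells. Split by mitochondrial share, it was -0.63 (-0.73 to -0.54) in cells below the median and -0.53 (-0.62 to -0.43) in the others. These splits were chosen after the values had been seen, and the part of RNA composition in the difference was not tested beyond them.

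The 14 endothelial markers summed to 26893 CPM in endothelial cells labelled IL34LacZ/LacZ and 29819 CPM in those labelled IL34LacZ/+, and all 14 were detected in both. Set against that sum, Cldn5 amounted to 59.1 UMIs (IL34LacZ/LacZ, 56.8 to 61.4) and 77.0 UMIs (IL34LacZ/+, 75.1 to 79.0) for every 1000 marker UMIs. In these cells the 15 choroid plexus markers summed to 1208 CPM (IL34LacZ/LacZ) and 1578 CPM (IL34LacZ/+), with Slc4a5 at 0 in the library labelled IL34LacZ/LacZ. The 14 oligodendrocyte markers summed to 480 CPM (IL34LacZ/LacZ) and 579 CPM (IL34LacZ/+) with none at 0. The part of foreign RNA in the Cldn5 ratio was not tested.

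Other genes of the endothelial junction lay on both sides of equality. Ocln, which encodes the strand protein occludin, had 416 CPM (IL34LacZ/LacZ) and 398 CPM (IL34LacZ/+), a log2 ratio of 0.06 (-0.08 to 0.20). Tjp1, the gene of the scaffold ZO-1, had 2308 CPM (IL34LacZ/LacZ) and 2422 CPM (IL34LacZ/+), a log2 ratio of -0.07 (-0.13 to -0.01). Cdh5, the endothelial cadherin of adherens junctions, had 346 CPM (IL34LacZ/LacZ) and 330 CPM (IL34LacZ/+), a log2 ratio of 0.07 (-0.09 to 0.22). Cdh5 and the junction gene Esam are also among the markers that formed this class, and both are counted with the junction genes below. The scaffold gene Pals1 had 66.5 CPM (IL34LacZ/LacZ) and 99.1 CPM (IL34LacZ/+), a log2 ratio of -0.58 (-0.91 to -0.25), just inside 1.5-fold and lower than that of Cldn5. Of 28 junction genes with at least 100 UMIs in endothelial cells, 0 were past 1.5-fold higher and 1 past 1.5-fold lower in the library labelled IL34LacZ/LacZ, beside 2.34% higher and 4.66% lower over all measured genes. Their median log2 ratio was -0.002 beside -0.01 over all measured genes. The 1 gene was the scaffold gene Magi2, with 38.4 CPM (IL34LacZ/LacZ) and 76.6 CPM (IL34LacZ/+), a log2 ratio of -0.996 (-1.43 to -0.58). Magi2 was far higher in oligodendrocytes, at 5446 CPM (IL34LacZ/LacZ) and 4543 CPM (IL34LacZ/+). In astrocytes it had 2364 CPM (IL34LacZ/LacZ) and 2299 CPM (IL34LacZ/+). The part of foreign RNA in its endothelial level was not tested. The part of transcription factors in the Cldn5 ratio was not tested. Of 4 listed factors known to act on Cldn5 transcription, 0 were past 1.5-fold higher, beside 2.34% of all measured genes. Past 1.5-fold lower was 1 of the 4, beside 4.66% of all measured genes. This was Sox18, a transcription factor reported to act on CLDN5 in human endothelial cells, with 98.2 CPM (IL34LacZ/LacZ) and 157.7 CPM (IL34LacZ/+), a log2 ratio of -0.68 (-0.96 to -0.42). Without the richest cell of each library Magi2 had a ratio of -0.85 and Sox18 of -0.74. The other 3 factors were inside 1.5-fold: Foxo1, which represses it, had 394 CPM (IL34LacZ/LacZ) and 374 CPM (IL34LacZ/+), Erg had 432 CPM (IL34LacZ/LacZ) and 475 CPM (IL34LacZ/+), and Ctnnb1, the gene of beta-catenin, had 283 CPM (IL34LacZ/LacZ) and 314 CPM (IL34LacZ/+).

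**Figure D3:**
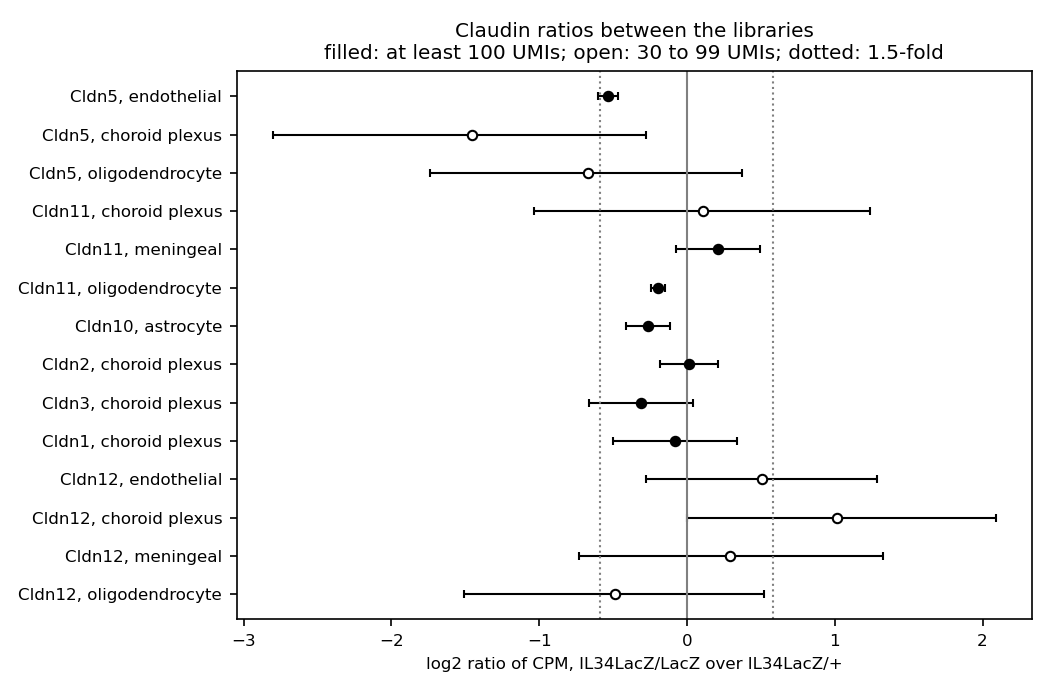
Log2 ratio of CPM, IL34LacZ/LacZ over IL34LacZ/+, with exact conditional binomial 95% intervals, for each claudin with at least 30 UMIs in a class. Filled points have at least 100 UMIs over both libraries, open points fewer, and dotted lines mark 1.5-fold. The 7 filled points all lie within 1.5-fold; Cldn5 in endothelial cells is the lowest of them, at -0.53.

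The choroid plexus epithelium used another set. Cldn2 encodes a channel for cations and water that marks leaky epithelia, whereas Cldn1 and Cldn3 encode sealing claudins. In GRCm38 Cldn2 lies on chromosome X from 139800828 to 139811386 on the plus strand, Cldn1 on chromosome 16 from 26356642 to 26371841 on the minus strand, and Cldn3 on chromosome 5 from 134986214 to 134987472 on the plus strand, where a gene on the opposite strand overlaps it. Cldn2 had 105 CPM (399 UMIs) in the library labelled IL34LacZ/LacZ and 104 CPM (487 UMIs) in the library labelled IL34LacZ/+, a log2 ratio of 0.01 (-0.18 to 0.21). Cldn1 had 22.7 CPM (IL34LacZ/LacZ, 86 UMIs) and 24.0 CPM (IL34LacZ/+, 112 UMIs), a log2 ratio of -0.08 (-0.50 to 0.34). Cldn3 had 30.1 CPM (IL34LacZ/LacZ, 114 UMIs) and 37.2 CPM (IL34LacZ/+, 174 UMIs), a log2 ratio of -0.31 (-0.66 to 0.04). Each of the 3 intervals includes 0, which does not show that the levels were equal. Of the 5987 genes measured in this class, 5.85% were past 1.5-fold higher and 0.935% past 1.5-fold lower in the library labelled IL34LacZ/LacZ, and 0 of the 3 claudins were in either group. The median log2 ratio of all measured genes was 0.08. With cells limited to 10% mitochondrial UMIs the Cldn2 ratio turned to -0.34 (-0.65 to -0.03). Mitochondrial transcripts took a median of 11.03% of UMIs in choroid plexus cells labelled IL34LacZ/LacZ and 9.49% in those labelled IL34LacZ/+, and that limit left 124 Cldn2 UMIs (IL34LacZ/LacZ) and 312 (IL34LacZ/+).

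These 3 claudins belonged to this class almost alone. Outside it, endothelial, meningeal, oligodendrocyte, astrocyte and pericyte cells of both libraries held between 0 and 5 UMIs of each per class. Cldn2 was found in 67.4% (61.4 to 73.1) of choroid plexus cells labelled IL34LacZ/LacZ and 62.6% (57.3 to 67.7) of those labelled IL34LacZ/+, against 1.72% (IL34LacZ/LacZ) and 1.22% (IL34LacZ/+) of astrocytes, whose median depth was 8964.5 UMIs (IL34LacZ/LacZ) and 8586 UMIs (IL34LacZ/+). Cldn3 was found in 31.4% (IL34LacZ/LacZ, 25.8 to 37.4) and 36.6% (IL34LacZ/+, 31.5 to 41.9) of choroid plexus cells. Cldn1 was found in 23.3% (IL34LacZ/LacZ, 18.2 to 28.9) and 25.7% (IL34LacZ/+, 21.2 to 30.6). After thinning to 1000 UMIs the shares of Cldn2 were 12.4% (IL34LacZ/LacZ, 8.64 to 17.1) and 8.86% (IL34LacZ/+, 6.10 to 12.3), which shows how far a share of cells with a UMI depends on depth.

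Within single choroid plexus cells the 3 claudins were found in all combinations. All 3 were seen in 17 of 258 cells labelled IL34LacZ/LacZ, or 6.59% (3.88 to 10.3), and in 36 of 350 cells labelled IL34LacZ/+, or 10.3% (7.31 to 14.0). At least 2 were seen in 36.8% (IL34LacZ/LacZ, 30.9 to 43.0) and 38.6% (IL34LacZ/+, 33.4 to 43.9) of cells, and none in 21.3% (IL34LacZ/LacZ, 16.5 to 26.8) and 24.0% (IL34LacZ/+, 19.6 to 28.8). Cldn2 alone was the most frequent state, with 84 cells (IL34LacZ/LacZ) and 90 cells (IL34LacZ/+). The intervals of the libraries overlap for each combination. A cell without a UMI is not a cell without the transcript, since these levels amount to few captured molecules per cell.

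**Figure D4:**
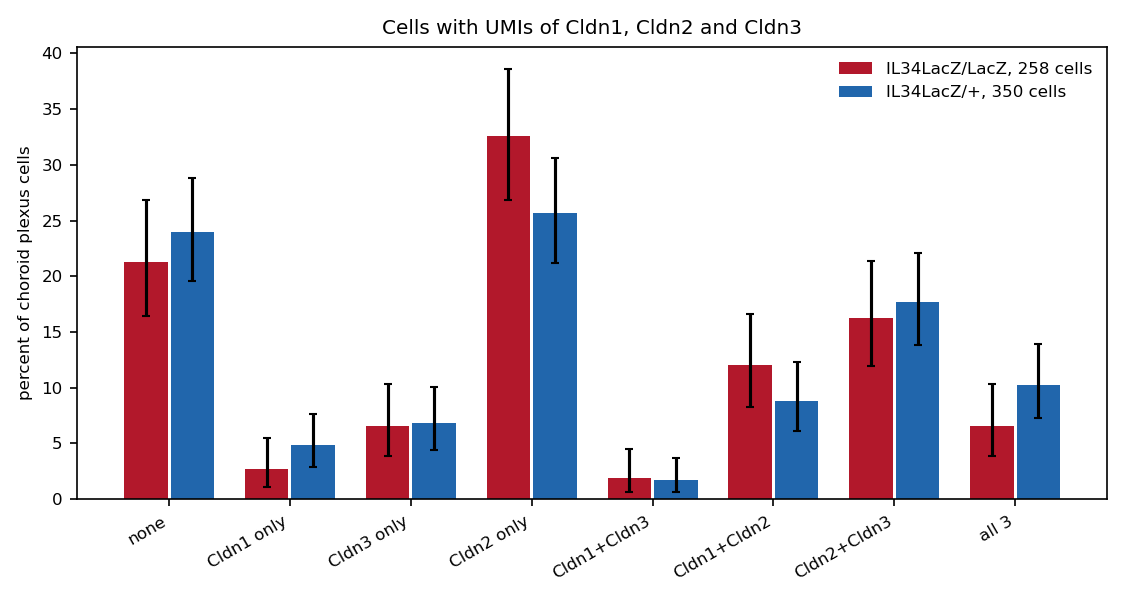
Percent of choroid plexus cells with UMIs of none, 1, 2 or all 3 of Cldn1, Cldn2 and Cldn3, with exact Clopper-Pearson 95% intervals; red bars are the library labelled IL34LacZ/LacZ (258 cells) and blue bars the library labelled IL34LacZ/+ (350 cells). Cldn2 alone is the tallest pair, at 32.6% (IL34LacZ/LacZ) and 25.7% (IL34LacZ/+), and the intervals of each pair overlap.

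Beside these claudins, several scaffold genes counted in choroid plexus cells were past 1.5-fold. Of 20 junction genes with at least 100 UMIs, 7 were past 1.5-fold higher and 0 past 1.5-fold lower in the library labelled IL34LacZ/LacZ, beside 5.85% higher and 0.935% lower over all measured genes. Their median log2 ratio was 0.39 beside 0.08 over all measured genes. Magi2 was the extreme, at 94.8 CPM (IL34LacZ/LacZ, 359 UMIs) and 23.3 CPM (IL34LacZ/+, 109 UMIs), but 56.8% of its UMIs in the library labelled IL34LacZ/LacZ came from 1 cell. Without the richest cell of each library it had 41.5 CPM (IL34LacZ/LacZ) and 17.2 CPM (IL34LacZ/+), a log2 ratio of 1.27 (0.87 to 1.67). Magi2 was far higher in oligodendrocytes, as given above, and the part of foreign RNA in its level here was not tested. Magi1, of the same scaffold family, had 21.6 CPM (IL34LacZ/LacZ) and 11.6 CPM (IL34LacZ/+), a log2 ratio of 0.91 (0.39 to 1.43). Its richest cell held 32.9% (IL34LacZ/LacZ) and 38.9% (IL34LacZ/+) of the UMIs, and without these cells the ratio was 1.05 (0.40 to 1.72). Pard3, a polarity scaffold, had 20.9 CPM (IL34LacZ/LacZ) and 10.5 CPM (IL34LacZ/+), a log2 ratio of 0.99 (0.46 to 1.54), and without the richest cells 0.64 (0.04 to 1.25). The other 4, with their log2 ratios, were Magi3 (0.80), Cdh2 (0.83), Patj (0.70) and Ildr2 (0.61), the last a gene of cell corners where 3 cells meet. For these 4 no ratio without the richest cells was taken. Most of these genes were far higher in another class. In the library labelled IL34LacZ/LacZ, endothelial cells had 630 CPM of Magi1, 782 CPM of Pard3 and 715 CPM of Magi3. Astrocytes there had 507 CPM of Cdh2, and meningeal cells 739 CPM of Ildr2. The part of foreign RNA in their choroid plexus levels was not tested. Ocln had 37.7 CPM (IL34LacZ/LacZ) and 39.4 CPM (IL34LacZ/+), and F11r, the gene of the adhesion molecule JAM-A, had 47.0 CPM (IL34LacZ/LacZ) and 50.7 CPM (IL34LacZ/+). The count of genes past 1.5-fold in this class was 406 here and 26 when cells were thinned.

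Cldn11 encodes the claudin that builds the strands within myelin, and it is also known from arachnoid barrier cells of the meninges. It lies on chromosome 3 from 31149920 to 31164324 on the plus strand. Oligodendrocytes held 6693 Cldn11 UMIs, or 1595 CPM (1557 to 1633), in the library labelled IL34LacZ/LacZ and 6429 UMIs, or 1825 CPM (1781 to 1870), in the library labelled IL34LacZ/+. The log2 ratio was -0.19 (-0.24 to -0.15), a lower level by 1.14-fold. In this class 1.38% of 7593 measured genes were past 1.5-fold higher and 1.62% past 1.5-fold lower, and Cldn11 was in neither group. The gene was found in 226 of 228 oligodendrocytes (IL34LacZ/LacZ) and 245 of 251 (IL34LacZ/+). The median cell had 1605 CPM (quartiles 1187 and 1981) in the library labelled IL34LacZ/LacZ and 1809 CPM (quartiles 1202 and 2352) in the library labelled IL34LacZ/+, so the cells of both overlap widely. Per 1000 UMIs of 14 oligodendrocyte markers, which hold the main myelin genes, it came to 31.2 UMIs (IL34LacZ/LacZ, 30.5 to 32.0) and 34.7 UMIs (IL34LacZ/+, 33.9 to 35.6).

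Both subtypes of oligodendrocyte carried Cldn11. Those with markers of the Klk6 type had 1552 CPM (1497 to 1609, 92 cells) of Cldn11 in the library labelled IL34LacZ/LacZ and 1819 CPM (1751 to 1890, 93 cells) in the library labelled IL34LacZ/+. Those with markers of the Opalin type had 1396 CPM (IL34LacZ/LacZ, 1258 to 1545, 18 cells) and 1369 CPM (IL34LacZ/+, 1207 to 1547, 21 cells). The Opalin type thus had the lower level in both libraries, though its interval meets that of the Klk6 type in the library labelled IL34LacZ/LacZ. Its level rests on few cells, of which the richest held 12.8% (IL34LacZ/LacZ) and 14.3% (IL34LacZ/+) of the Cldn11 UMIs. The median Opalin cell had 1382 CPM (IL34LacZ/LacZ) and 792 CPM (IL34LacZ/+). Cells of neither type had 1662 CPM (IL34LacZ/LacZ) and 1876 CPM (IL34LacZ/+).

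Meningeal cells were the second site of Cldn11. They held 214 UMIs, or 168 CPM (147 to 192), in the library labelled IL34LacZ/LacZ and 203 UMIs, or 146 CPM (126 to 167), in the library labelled IL34LacZ/+. The ratio had no stable direction: it was 0.21 (-0.08 to 0.49) here, but -0.29 with no filter on cells, -0.17 in Leiden clusters and -0.20 under a stricter gate. In this class 3.67% of 5279 measured genes were past 1.5-fold higher and 4.19% past 1.5-fold lower, and Cldn11 was in neither group. The gene was found in 58.9% (IL34LacZ/LacZ, 48.0 to 69.2) and 58.8% (IL34LacZ/+, 48.3 to 68.7) of meningeal cells, whose median depth was 13920.5 UMIs (IL34LacZ/LacZ) and 13937 UMIs (IL34LacZ/+). Of choroid plexus cells, 12 of 258 (IL34LacZ/LacZ) and 14 of 350 (IL34LacZ/+) had a Cldn11 UMI.

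Cldn11 divided the meningeal class. In a split made after the values had been seen, cells with the border markers Slc47a1, Bnc2 and Rspo3 in the lead held 212 Cldn11 UMIs in 66 cells labelled IL34LacZ/LacZ and 203 in 77 cells labelled IL34LacZ/+, or 205 CPM (IL34LacZ/LacZ, 178 to 234) and 169 CPM (IL34LacZ/+, 146 to 194). Cells in which Dcn, Pdgfra and Slc6a13 led, called collagen-rich here, held 2 UMIs in 23 cells (IL34LacZ/LacZ) and 0 in 20 cells (IL34LacZ/+), where 3 UMIs would be 15.7 CPM. In the class gate Dcn and Pdgfra were fibroblast markers, but Slc6a13 was a border marker. Cldn11 thus marked the border cells and was near or at 0 in the collagen-rich cells of both libraries.

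Myelin transcripts are abundant and can reach other cells as free RNA, so Cldn11 was also set against the myelin markers found in the same cells. Choroid plexus cells had 21.7 Cldn11 UMIs (IL34LacZ/LacZ, 11.9 to 36.5) and 19.1 (IL34LacZ/+, 10.9 to 31.0) per 1000 oligodendrocyte marker UMIs. Endothelial cells had 10.2 (IL34LacZ/LacZ, 4.39 to 20.0) and 12.97 (IL34LacZ/+, 7.92 to 20.0), and astrocytes 5.89 (IL34LacZ/LacZ, 1.22 to 17.2) and 8.94 (IL34LacZ/+, 4.46 to 16.0). All of these were below the values of oligodendrocytes given above, though the interval of choroid plexus cells labelled IL34LacZ/LacZ includes that of the oligodendrocytes. Pericytes held 2 Cldn11 UMIs in each library, too few to compare. Meningeal cells had 728 (IL34LacZ/LacZ, 634 to 832) and 416 (IL34LacZ/+, 361 to 477), and the border cells alone 883 (IL34LacZ/LacZ, 768 to 1011) and 479 (IL34LacZ/+, 415 to 549). Cldn11 in meningeal cells was thus many times higher, relative to myelin markers, than in the oligodendrocytes of the same library. The same markers formed the classes, so the gate raises their count in oligodendrocytes and lowers it in the other classes. How much of the difference comes from the gate was not tested. These intervals cover the error of the claudin count and not that of the marker count.

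**Figure D5:**
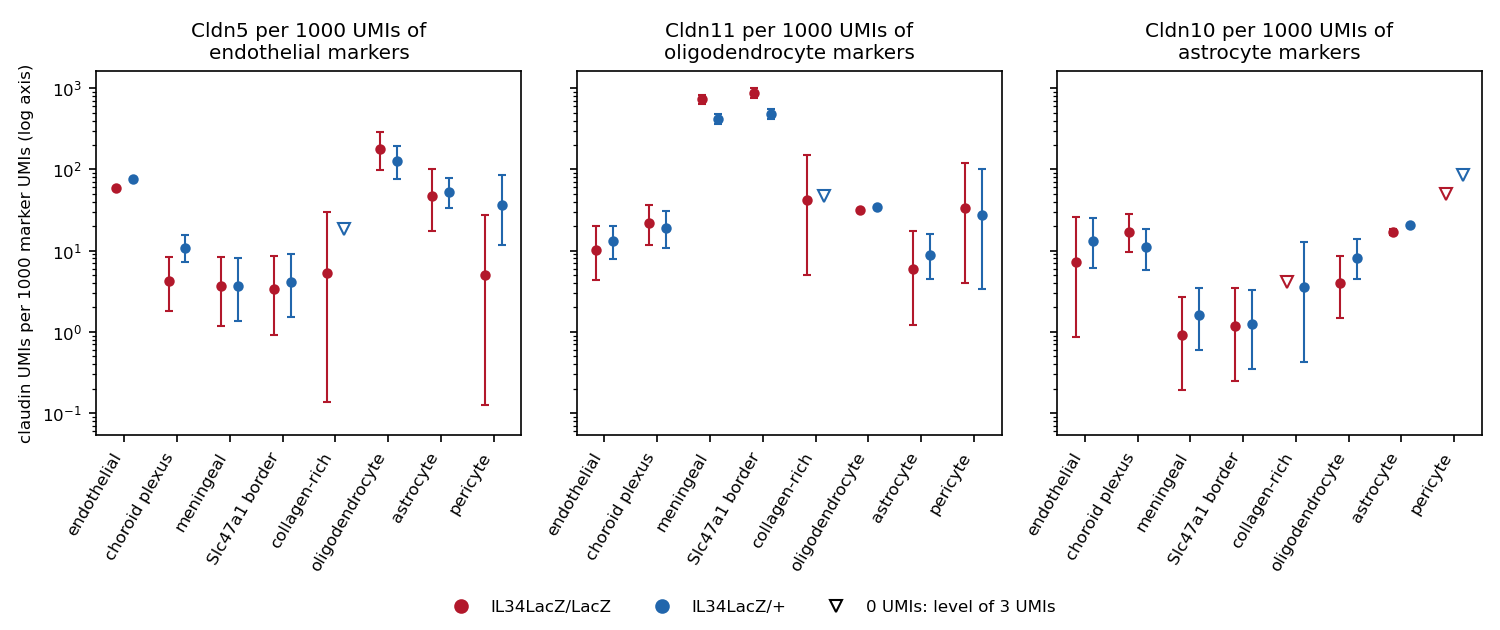
UMIs of Cldn5, Cldn11 and Cldn10 per 1000 UMIs of the markers of endothelial cells, oligodendrocytes and astrocytes, on a log axis, in 6 classes and the 2 groups of the meningeal class, with exact Poisson 95% intervals on the claudin count; open triangles mark the level of 3 UMIs where there were 0. Cldn11 in meningeal cells, at 728 (IL34LacZ/LacZ) and 416 (IL34LacZ/+), lies far above its value in oligodendrocytes, at 31.2 (IL34LacZ/LacZ) and 34.7 (IL34LacZ/+). The same markers formed the classes, which lowers their count outside the class they mark.

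Cldn5 outside the endothelium was treated in the same way. Oligodendrocytes held 15 Cldn5 UMIs (IL34LacZ/LacZ) and 20 (IL34LacZ/+), a level of 3.57 CPM (IL34LacZ/LacZ) and 5.68 CPM (IL34LacZ/+). Beside the few endothelial marker UMIs in those cells, 85 (IL34LacZ/LacZ) and 159 (IL34LacZ/+), this made 176 per 1000 (IL34LacZ/LacZ, 98.8 to 291) and 126 per 1000 (IL34LacZ/+, 76.8 to 194). The value lies above that of endothelial cells in the library labelled IL34LacZ/LacZ, and in the library labelled IL34LacZ/+ the interval still includes the 77.0 of endothelial cells. Astrocytes held 6 UMIs (IL34LacZ/LacZ) and 23 (IL34LacZ/+), or 46.9 per 1000 (IL34LacZ/LacZ, 17.2 to 102) and 52.6 per 1000 (IL34LacZ/+, 33.4 to 79.0), intervals that include the endothelial value of each library. Choroid plexus cells held 8 UMIs (IL34LacZ/LacZ) and 27 (IL34LacZ/+), or 4.21 per 1000 (IL34LacZ/LacZ, 1.82 to 8.31) and 10.8 per 1000 (IL34LacZ/+, 7.15 to 15.8). The log2 ratio of their Cldn5 CPM was -1.45 (-2.80 to -0.27), so the few tags in this class were also lower in the library labelled IL34LacZ/LacZ. Meningeal cells held 5 UMIs (IL34LacZ/LacZ) and 6 (IL34LacZ/+), and pericytes 1 (IL34LacZ/LacZ) and 5 (IL34LacZ/+).

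Cldn10 encodes a claudin that forms ion channels between cells and has forms with different first exons. It lies on chromosome 14 from 118787908 to 118875489, on the plus strand. Astrocytes held 547 UMIs, or 472 CPM (433 to 513), in the library labelled IL34LacZ/LacZ and 1247 UMIs, or 565 CPM (534 to 597), in the library labelled IL34LacZ/+. The log2 ratio was -0.26 (-0.41 to -0.11), a lower level in the library labelled IL34LacZ/LacZ. In this class 1.5% of 5582 measured genes were past 1.5-fold higher and 3.62% past 1.5-fold lower in the library labelled IL34LacZ/LacZ, and Cldn10 was in neither group. It was found in 91 of 116 astrocytes labelled IL34LacZ/LacZ, or 78.4% (69.9 to 85.5), and in 200 of 245 labelled IL34LacZ/+, or 81.6% (76.2 to 86.3). The median cell had 315 CPM (IL34LacZ/LacZ, quartiles 92.0 and 636) and 415 CPM (IL34LacZ/+, quartiles 106 and 861), so the ranges between the quartiles overlap.

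Astrocyte subtypes shared Cldn10. Non-telencephalic astrocytes, the majority, had 534 CPM (484 to 589, 77 cells) labelled IL34LacZ/LacZ and 637 CPM (597 to 678, 174 cells) labelled IL34LacZ/+. Telencephalic astrocytes had 494 CPM (IL34LacZ/LacZ, 409 to 593, 20 cells) and 518 CPM (IL34LacZ/+, 455 to 588, 43 cells). The intervals of the subtypes overlap in the library labelled IL34LacZ/LacZ and lie apart in the library labelled IL34LacZ/+. Cells of neither subtype had less, 155 CPM (IL34LacZ/LacZ, 101 to 227, 19 cells) and 165 CPM (IL34LacZ/+, 115 to 228, 28 cells). Outside astrocytes the level was between 1.22 and 4.31 CPM in endothelial, choroid plexus, meningeal and oligodendrocyte cells, and 0 UMIs were found in pericytes.

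Cldn12, whose protein lacks the tail by which most claudins bind ZO scaffolds, was low but spread over all classes. Its gene lies on chromosome 5 from 5489537 to 5514958 on the minus strand. It had 17.1 CPM (28 UMIs) in endothelial cells labelled IL34LacZ/LacZ and 12.02 CPM (32 UMIs) in those labelled IL34LacZ/+, a log2 ratio of 0.51 (-0.28 to 1.28). Pericytes had 23.3 CPM (IL34LacZ/LacZ, 6 UMIs) and 30.1 CPM (IL34LacZ/+, 5 UMIs). Meningeal cells had 14.9 CPM (IL34LacZ/LacZ) and 12.2 CPM (IL34LacZ/+), and oligodendrocytes 4.05 CPM (IL34LacZ/LacZ) and 5.68 CPM (IL34LacZ/+). Choroid plexus cells had 6.07 CPM (IL34LacZ/LacZ, 23 UMIs) and 2.996 CPM (IL34LacZ/+, 14 UMIs), a log2 ratio of 1.02 whose interval reaches 0 and extends to 2.09. A Cldn12 UMI was found in 17.8% (IL34LacZ/LacZ, 10.5 to 27.3) and 14.4% (IL34LacZ/+, 8.12 to 23.0) of meningeal cells and in at most 9.09% of each other class in either library. Fewer than 100 UMIs in each class keep Cldn12 out of the counts of genes past 1.5-fold. Cldn19, a claudin of Schwann cells and kidney tubules, had 2 UMIs in all cells labelled IL34LacZ/LacZ and 1 in all cells labelled IL34LacZ/+, too few for any comparison at this depth.

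The genes most like each claudin across the 6 classes and 2 libraries were found by Pearson's r of log2(CPM + 1) over those 12 points, among 10638 genes. The points share libraries and differ mostly by class, so r mainly says that a gene has the same home class. For Cldn5 they were Megf6 (0.987), Prom1 (0.986) and Icam2 (0.984). For Cldn11, with its pair of sites, they were Serpinb1a (0.989), Fnta (0.979) and Gng8 (0.974). Cldn10 was followed by Actr3b (0.984), Gabrg1 (0.983) and Btbd17 (0.982). In the choroid plexus Cldn2 was most like Vpreb1 (0.996), Ppp1r36 (0.991) and Rsph1 (0.990), Cldn1 like Prcd (0.9952), Slc16a8 (0.985) and Smim22 (0.984), and Cldn3 like Serpinb1b (0.9951), Myo5b (0.993) and Spag6l (0.992). Cldn12, with no home class, had the weakest likeness, to Myh9 (0.958), Hipk1 (0.956) and Mndal (0.955).

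In the remaining classes the share of junction genes past 1.5-fold was near that of all measured genes. Of 21 in meningeal cells 0 were past 1.5-fold higher and 1 lower, beside 3.67% and 4.19% of all measured genes. The 1 was Patj, at 28.3 CPM (IL34LacZ/LacZ) and 59.6 CPM (IL34LacZ/+), a log2 ratio of -1.07 (-1.68 to -0.49). Of 18 in astrocytes 0 were past 1.5-fold higher and 1 lower, beside 1.5% and 3.62% of all measured genes. The 1 was the junction-associated gene Tjap1, at 21.5 CPM (IL34LacZ/LacZ) and 35.3 CPM (IL34LacZ/+), a log2 ratio of -0.71 (-1.43 to -0.05). Of 19 in oligodendrocytes 0 were past 1.5-fold in either direction, beside 1.38% higher and 1.62% lower of all measured genes.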

How the data were processed

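The authors deposited 1 matrix per library of UMI counts per gene and barcode; per the file headers it was written by Cell Ranger 7.1.0. The kit was the 10x 3' kit v3.1 per the labels' protocols, and the genome build mm10 (GRCm38.p6) comes from the submitters' processing notes. The sources used here do not state whether intronic reads were counted or free RNA was removed. Barcodes with at least 1000 UMIs, 500 genes and at most 15% mitochondrial UMIs were kept, 1175 labelled IL34LacZ/LacZ and 1668 labelled IL34LacZ/+. Scrublet in scanpy 1.11.5 marked 7 (IL34LacZ/LacZ) and 3 (IL34LacZ/+) of these as doublets, which were removed. Doublets that it missed can carry transcripts of another class. A cell joined the class of highest mean marker score (at least 0.2, and 0.1 above the next) from 16 marker lists without claudins, with the meningeal and fibroblast lists merged. 51 cells (IL34LacZ/LacZ) and 79 cells (IL34LacZ/+) joined none. CPM is a gene's summed UMIs in a class and library as a rate over all UMIs there. Intervals are exact (Poisson, Clopper-Pearson, or conditional binomial for ratios) at 95%. Ratios need 30 UMIs over both libraries, and counts of genes past 1.5-fold need 100. The ratio and its interval were tried on simulated Poisson counts, the model that the interval assumes. Those counts held no spread between cells or libraries, so they say nothing of error beyond counting. The rule for named genes took the 8 claudins, members of the junction lists past 1.5-fold with an interval that leaves out equality, and for each claudin the 3 genes of highest r among genes with at least 200 UMIs. Ocln, Tjp1, Cdh5, Pals1, F11r, Foxo1, Erg and Ctnnb1, quoted although within 1.5-fold, were chosen after their values were seen. The claudins, the lists and the rules were chosen with earlier results of these data known. Gene positions come from GENCODE M21 and promoters from RefSeq, both GRCm38. Cldn3 and Cldn19 each overlap a gene on the opposite strand in that annotation. A 3' tag count depends on the transcript's end. Calling Cldn12 low, or Cldn2 alone the most frequent state, therefore describes tag counts and not relative transcript amounts of different claudins. The closing section gives the alternatives.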

Additional observations from a re-analysis of the deposited data

How the results depend on the processing

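No paired analysis was possible because there was 1 library per genotype. Under the alternatives 78 claudin ratios stayed within the counting interval of the reported value and 11 did not; of the levels per library 101 stayed and 43 did not. The ratios are log2, IL34LacZ/LacZ over IL34LacZ/+. Cldn5 in endothelial cells was below 0 in each alternative; it was -0.63 in Leiden clusters, which is past 1.5-fold, and, in splits added after seeing the data, -0.25 in cells below the median ribosomal protein share and -0.63 in cells below the median mitochondrial share. Cldn11 in meningeal cells was 0.21 as reported but -0.29 with no filter on cells, -0.17 in Leiden clusters, -0.20 under a stricter gate and -0.19 after thinning to 1000 UMIs per cell. Thinning also gave -0.13 for Cldn11 in oligodendrocytes, -1.26 for Cldn1 (4 UMIs in IL34LacZ/LacZ, 13 in IL34LacZ/+) and 0.57 for Cldn2 (36 UMIs in IL34LacZ/LacZ, 33 in IL34LacZ/+) in the choroid plexus, and Cldn2 was -0.34 at a mitochondrial limit of 10%. The cause was not tested. Genes past 1.5-fold numbered 428 in endothelial, 406 in choroid plexus, 415 in meningeal, 228 in oligodendrocyte and 286 in astrocyte cells. After thinning they were 102, 26, 12, 23 and 24, and among genes of at least 300 UMIs 107, 51, 85, 48 and 37, in the same order; both settings leave fewer genes to count. Cldn12 and Cldn19 stayed under 100 UMIs in each class, too few for the counts past 1.5-fold.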

Other observations

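Among the 24 other claudin symbols, 12 had a UMI in cells labelled IL34LacZ/LacZ and 14 in cells labelled IL34LacZ/+, and 4 reached 30 UMIs over both. Cldn14, known from the inner ear and kidney, was found in oligodendrocytes, with 147 UMIs (35.0 CPM) labelled IL34LacZ/LacZ and 146 UMIs (41.5 CPM) labelled IL34LacZ/+, and the endothelial, choroid plexus, meningeal, astrocyte and pericyte classes together held 0 (IL34LacZ/LacZ) and 1 (IL34LacZ/+). Cldn9 was found in the choroid plexus epithelium, with 30 UMIs (IL34LacZ/LacZ, 7.92 CPM) and 50 UMIs (IL34LacZ/+, 10.7 CPM), and held 0 in those other classes and in oligodendrocytes. Cldn22 had 19 UMIs (IL34LacZ/LacZ, 5.01 CPM) and 24 UMIs (IL34LacZ/+, 5.14 CPM) in the choroid plexus, and 1 UMI (IL34LacZ/LacZ) and 4 (IL34LacZ/+) in meningeal cells. Cldn34c1 was spread over endothelial cells (35.4 CPM in IL34LacZ/LacZ, 33.0 CPM in IL34LacZ/+), oligodendrocytes (38.8 CPM in IL34LacZ/LacZ, 31.8 CPM in IL34LacZ/+) and astrocytes (16.4 CPM in IL34LacZ/LacZ, 20.4 CPM in IL34LacZ/+). These 4 were named after their values had been seen.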
